A study of Mus musculus with 18 samples.

Results

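The nuclear genes of the mitochondrial respiratory chain were examined in mouse embryonic stem cells differentiating into spinal motor neurons. All protein-coding genes named Nduf, Uqcr, Sdha to Sdhd, Cox4 to Cox8, Cycs and Cyc1 were taken from the annotation, which gave 80 of the 27179 gene rows. They comprised 38 subunits and 8 assembly factors of complex I, the 2 genes of the Ndufa4 family, 4 of complex II, 9 of complex III, cytochrome c and 18 of complex IV. RNA-seq counts came from 18 libraries, 3 in each of 6 groups. Isogenic lines carried a single doxycycline-inducible, Flag-tagged Hox transgene at the Hprt locus. Dox (3 µg/ml) was given for 48 h from day 2 to the lines named iHoxc6, iHoxc8, iHoxc9 and iHoxc10, and cells were taken on day 4. The control was the iHoxc6 line kept without Dox until day 4. The day 2 progenitors, named day2, came from another line labeled iCre and had no Dox. All cells received retinoic acid and a Hedgehog agonist, and the replicates were independent differentiations according to the study.

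The respiratory chain passes electrons from NADH through complex I, or from succinate through complex II, to ubiquinone, then through complex III and cytochrome c to complex IV, which reduces oxygen. Complexes I, III and IV pump protons, and the ATP synthase uses the resulting gradient. Mitochondrial DNA encodes a few core subunits and the nucleus encodes the remainder, so the genes described here are broadly expressed in tissues and neurons rely heavily on their products. Several complex IV subunits exist as pairs, with a form used in most tissues and another used in muscle, heart, lung or testis.

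The transcription factors NRF1, GABP and YY1 are known regulators of this gene family. The promoter window of each gene, from 250 bases before to 50 after a RefSeq start in GRCm38, was available for 63 of the 80 genes and was searched on both strands. The NRF1 motif, with 1 free base, was present in 13 of the 63 genes (20.6%), against 5.19% of all 27025 genes with a window. The GABP and ETS letters CCGGAAG were present in 13 genes (20.6%, against 9.93%), and the YY1 motif in 5 (7.94%, against 0.755%). Below are the 120 bases before the start of 4 genes whose levels moved in this series, 5′ to 3′ on the gene's strand. Capitals mark the NRF1 motif, and in Cox6a1 also the GABP and ETS letters on the opposite strand near the start. Cox6a1 and Ndufaf4 were chosen because both hold the NRF1 motif and changed in opposite directions from day 2. Ndufb4 holds it at 2 places, and Cox7b, which fell most in iHoxc9 and iHoxc10 neurons, holds none of the 3 motifs in the stretch shown.
Cox6a1, chr5:115348959-115349078, minus strand: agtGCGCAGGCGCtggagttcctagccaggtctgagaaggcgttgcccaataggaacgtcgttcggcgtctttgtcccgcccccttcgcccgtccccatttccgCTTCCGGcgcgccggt
Ndufaf4, chr4:24897963-24898082, plus strand: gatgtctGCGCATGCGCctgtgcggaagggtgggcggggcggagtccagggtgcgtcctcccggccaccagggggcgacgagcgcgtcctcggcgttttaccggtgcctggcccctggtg
Ndufb4, chr16:37654369-37654488, minus strand: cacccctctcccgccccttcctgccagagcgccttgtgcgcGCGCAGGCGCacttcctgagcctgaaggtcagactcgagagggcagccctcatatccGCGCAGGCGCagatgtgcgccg
Cox7b, chrX:106015580-106015699, plus strand: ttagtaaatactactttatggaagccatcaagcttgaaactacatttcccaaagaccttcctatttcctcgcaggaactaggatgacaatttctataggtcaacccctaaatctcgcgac

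Total counts per library ranged from 24498630 to 33168533. Levels are CPM, counts scaled to the library total, after TMM normalization, and levels of different genes are compared as CPM per kilobase of exon. Of the 80 genes, 73 had a mean of at least 1 CPM over the 18 libraries. Neuronal marker genes (Tubb3, Elavl3, Stmn2, Map2 and Snap25) summed to 254 to 510 CPM in the day 2 libraries and to 4652 to 6797 CPM on day 4, and motor neuron markers rose from 19.0 to 44.9 CPM to 296 to 569 CPM. The summed level of cycling genes was 1357 to 1675 CPM on day 2 and 312 to 743 CPM on day 4. Pluripotency markers summed to 11.2 CPM at most, and heart and mesoderm or muscle markers to 2.23 CPM at most. The endoderm list (Sox17, Foxa2, Gata4 and Afp) summed to 23.8 to 68.5 CPM on day 2 and 21.3 to 23.8 CPM in control. It summed to 35.5 to 57.7 CPM in iHoxc6, 27.6 to 44.6 CPM in iHoxc8 and 11.8 to 25.5 CPM in iHoxc9 and iHoxc10. Sox17 and Afp had no count in iHoxc6 and iHoxc10, and Gata4 and Afp had none in iHoxc9. Only 1 of the 3 tested had a mean of at least 1 CPM, so the induced sums came mostly from Foxa2 and do not show endoderm cells. The flow cells in the labels define 4 sequencing runs. Control and iHoxc6 shared a run, iHoxc9 and iHoxc10 shared another, and iHoxc8 and day 2 had a run each. In every other comparison, a difference between runs cannot be told apart from one between Hox genes, lines or days. Every induced library had Dox, and no control or day 2 library had it. An effect of Dox itself therefore cannot be told apart from that of a Hox gene in any comparison with control, within a run or across runs.

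In control neurons, the levels per length differed widely between complexes. Cox4i1, the common form of complex IV subunit 4, was the most abundant at 1001 CPM per kb, and Cox7c (564.3 CPM per kb) and the complex III hinge subunit Uqcrh (535 CPM per kb) followed. Among expressed genes, the median was 321 CPM per kb in complex IV (12 genes), 174 in complex III (9 genes), 111 in complex I subunits (36 genes with a length), 70.5 in complex II (4 genes) and 12.3 in the complex I assembly factors (8 genes). The assembly factors, which help to build complex I and are not part of it, ranged from 4.62 to 35.0 CPM per kb. Gene lengths are those of 1 GENCODE transcript per gene, the longest protein-coding one with a RefSeq link where there was one. The 2 genes without a length, Ndufb4b and Ndufb4c, were left out of these levels.

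**Figure D1:**
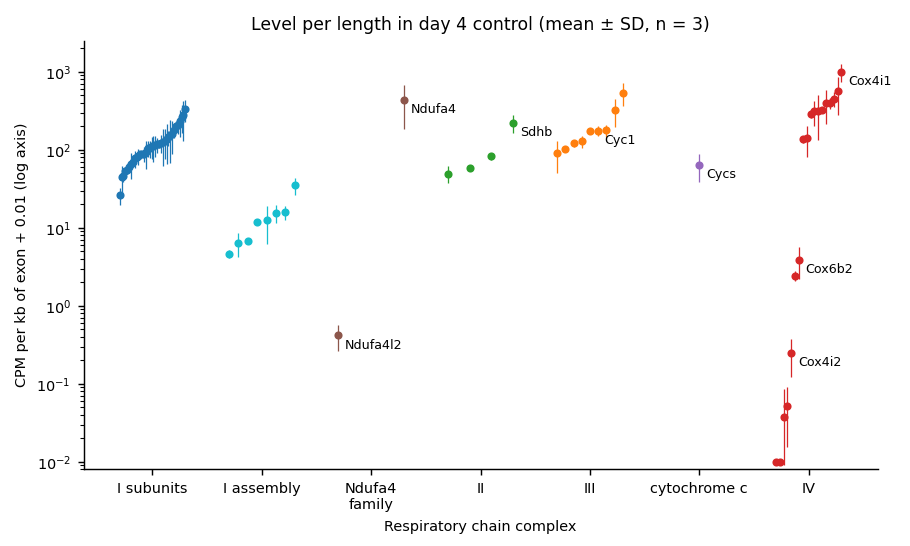
Level of each gene in day 4 control neurons, as CPM per kb of exon plus 0.01 on a log axis, grouped by complex. Points are means and bars SDs of 3 libraries. Cox4i1 stands highest at 1001 CPM per kb, the complex I assembly factors lie between 4.62 and 35.0, and several tissue forms of complex IV subunits lie at the bottom of the axis.

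The tissue forms were nearly silent in all 6 groups. Cox4i2, the lung form of subunit 4, lay between 0.0391 and 0.750 CPM in the 18 libraries, against 394 to 983 CPM for Cox4i1. Cox6a2, the heart and muscle form of subunit 6a, was at 0 in all control, iHoxc6, iHoxc8 and iHoxc10 libraries and at most 0.125 CPM elsewhere, whereas Cox6a1 lay between 111 and 268 CPM. Counts of 0 in a library allow up to 0.0883 to 0.122 CPM (3 counts), for counting error only. Cox7a1, the heart and muscle form of subunit 7a, lay between 0.347 and 1.3 CPM. Its broadly expressed counterpart Cox7a2 lay between 91.1 and 380 CPM, and Cox7a2l, which takes part in joining complexes into supercomplexes, between 166 and 473 CPM. Cox7b2 and Cox8c reached 0.157 and 0.0998 CPM at most, and Cox8b, the muscle form of subunit 8, had a count in a single library. Ndufa4l2, the relative of Ndufa4 known to be induced by hypoxia, lay between 0.119 and 1.53 CPM. The exception was Cox6b2, known as the testis form of subunit 6b, which was measurable at 4.75, 5.33 and 4.62 CPM on day 2 and at 1.16 to 5.85 CPM on day 4. Its counterpart Cox6b1 lay between 148 and 347 CPM.

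From day 2 progenitors to day 4 control neurons, 16 respiratory chain genes were higher and 2 lower at an adjusted p under 0.01 (edgeR quasi-likelihood test, Benjamini-Hochberg over 20944 genes). Over all genes tested, 21.2% were called higher and 21.2% lower. The median log2 fold change was 0.20 over the 80 genes and 0.00 over all genes. The higher genes comprised 9 of 38 complex I subunits, the assembly factor Ndufaf3, Sdhb and Sdhc of complex II, and Cox4i1, Cox5a, Cox6a1 and Cox6b1 of complex IV. No gene of complex III was called. The lower genes were Ndufaf4 and Cox6b2. Without control replicate 3, the counts were 7 higher and 8 lower. They were 14 higher and 11 lower without day 2 replicate 3, and 28 higher and 3 lower without control replicate 2. With a per-library correction for gene length, 21 were higher and 11 lower (against 21% and 24.4% of all genes), whereas the correction for GC content left 6 higher and 8 lower. With DESeq2's size factors the split was 15 higher and 6 lower, and DESeq2 itself called 16 higher and 8 lower.

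Ndufv3, an accessory subunit of the NADH-binding arm of complex I, showed the largest rise. It was at 31.6, 34.9 and 42.2 CPM on day 2 and at 87.7, 81.7 and 92.5 CPM in control. The groups did not overlap, and the log2 fold change was 1.27 (SE 0.14, adjusted p = 4.37e-08 by edgeR). Ndufaf3, an assembly factor, was at 11.7, 12.5 and 10.8 CPM on day 2 and at 20.4, 21.0 and 28.7 CPM in control, a log2 fold change of 1.01 (SE 0.17, adjusted p = 3.86e-05 by edgeR). Its exons overlap those of Impdh2 on the opposite strand, and the strand setting of the counting is not stated. Cox6a1, the common form of subunit 6a, was at 113, 122 and 111 CPM on day 2 and at 210, 205 and 268 CPM in control. Its log2 fold change was 0.98 (SE 0.16, adjusted p = 2.56e-05 by edgeR) and lost its call under the GC correction (0.40, adjusted p = 0.0273 by edgeR). All 3 genes were also higher in every induced library than in any day 2 library.

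Ndufaf4, an assembly factor, moved the other way. It was at 47.5, 47.1 and 26.1 CPM on day 2 and at 18.1, 14.5 and 17.9 CPM in control, a log2 fold change of -1.26 (SE 0.19, adjusted p = 6.22e-06 by edgeR). The day 2 libraries were all above the 12 induced libraries, which lay between 9.73 and 20.9 CPM. Cox6b2 had a log2 fold change of -1.09 (SE 0.26, adjusted p = 0.00117 by edgeR) and was called lower in control, at 3.41, 1.46 and 1.98 CPM. It was not called when only the groups compared were fitted (-1.06, adjusted p = 0.0208 by edgeR). Its induced levels reached those of day 2 in iHoxc10 alone, where they were 5.85, 4.26 and 3.04 CPM.

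When all 15 day 4 libraries were set against the 3 day 2 libraries, 7 of the 80 genes did not overlap and were higher on day 4, against 19% of all genes tested. They were Cox5a, Cox6a1, Ndufa3, Ndufa8, Ndufaf3, Ndufb10 and Ndufv3. Another 4, Cox8c, Ndufaf4, Ndufaf7 and Sdhd, were lower in all 15, against 17.7% of all genes. Cox8c did not exceed 0.0998 CPM in any library. Sdhd, a membrane anchor of complex II, was at 130, 146 and 124 CPM on day 2 and at 71.3 to 115 CPM on day 4. Sdhc, the other anchor, was at 116, 124 and 139 CPM on day 2 and at 169, 186 and 195 CPM in control, where it was called higher (log2 fold change 0.54).

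Other genes of energy metabolism are given from lists of pathways, beside 21.2% of all genes called higher and 21.2% lower in control against day 2. In control against day 2, 7 of the 13 genes encoded by mitochondrial DNA were lower and none higher, with a median log2 fold change of -0.82. Of 17 nuclear ATP synthase genes, 1 was higher. Among 19 glycolysis genes, 6 were higher and 3 lower, and among 13 genes of the TCA cycle 1 was higher and 4 lower. Of 12 regulators of mitochondrial gene expression, 2 were higher and 8 lower. Of 77 cytosolic ribosomal genes 13 (16.9%) were lower, and of 78 mitochondrial ribosomal genes 2 were higher and 16 (20.5%) lower. Neither share of lower genes exceeded that of all genes. In a list of 10 hypoxia response genes, 4 were higher.

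**Figure D2:**
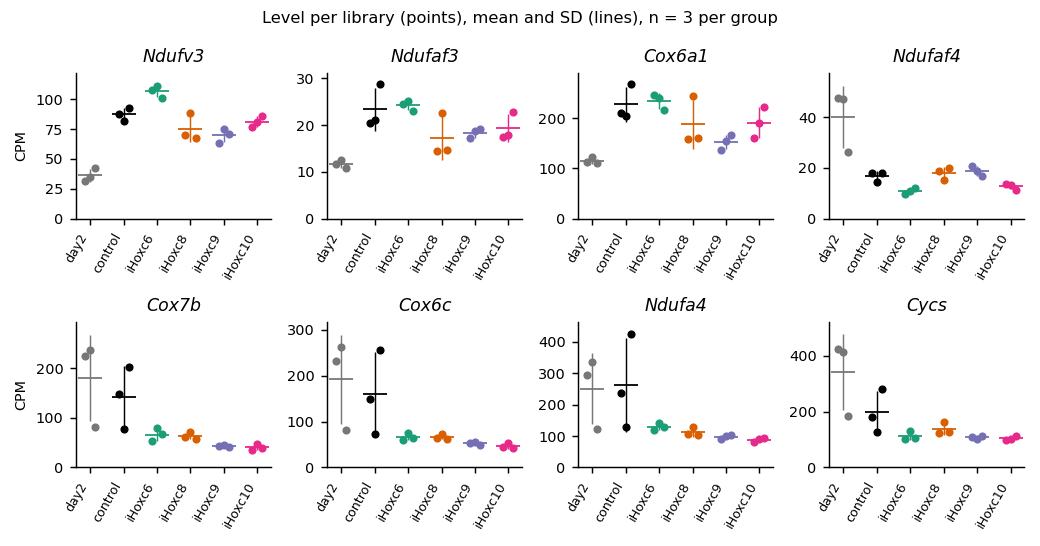
Level in CPM of 8 respiratory chain genes in the 6 groups, with 1 point per library and the mean and SD of 3 libraries. Ndufv3, Ndufaf3 and Cox6a1 lie lowest on day 2 and Ndufaf4 lies highest there, while Cox7b, Cox6c, Ndufa4 and Cycs spread widely within day 2 and control and lie close together within each induced group.

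Hoxc6 induction was compared with the same line without Dox, within a run. No respiratory chain gene was called in iHoxc6 neurons, against 0.587% of all genes called, 0.363% higher and 0.224% lower. At an unadjusted p under 0.05, 30 of the 80 genes passed, against 21.2% of all genes, and DESeq2's Wald test called 2, both lower. The median log2 fold change was -0.14. Without control replicate 2, 15 genes were called, all lower. The largest differences among expressed genes included Cox6c, a small structural subunit of complex IV, with 60.8, 75.2 and 64.4 CPM in iHoxc6 and 149, 73.1 and 257 CPM in control. The groups overlapped, and the log2 fold change of -1.26 had an adjusted p of 0.0429 (edgeR). Among the core and carrier genes, the log2 fold changes ran from 0.31 for Sdha, through 0.00 for Ndufs1, an iron-sulfur subunit of complex I, to -0.80 for Cycs, which was at 101, 131 and 107 CPM in iHoxc6 and at 181, 129 and 281 CPM in control (adjusted p = 0.0739 by edgeR).

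In iHoxc8 neurons, 5 genes were lower than in control and none higher, against 2.12% of all genes called, 1.09% lower and 1.03% higher. The median over the 80 genes was -0.50 on the log2 scale, and over all genes it was 0.02. The 5 genes were the complex I subunits Ndufb9, Ndufb4, Ndufb4b and Ndufb4c and the complex III subunit Uqcr11. The first of these overlaps Gm49356 on the same strand, and the Ndufb4 genes are near-identical copies. Ndufb9 was at 88.8, 113 and 85.5 CPM in iHoxc8 and at 173, 123 and 269 CPM in control (log2 fold change -0.98, SE 0.21, adjusted p = 0.00875 by edgeR). Uqcr11 was at 73.2, 93.5 and 65.6 CPM against 119, 103 and 206 CPM (log2 fold change -0.88, SE 0.19, adjusted p = 0.00893 by edgeR). Neither group pair overlapped, with iHoxc8 replicate 2 the highest of its group for each gene. The count rested on single libraries. It was 0 without control replicate 3, iHoxc8 replicate 1 or iHoxc8 replicate 3, it was 1 without control replicate 1, and it rose to 33 without control replicate 2 and to 11 without iHoxc8 replicate 2. Both named genes lost their call without control replicate 3 (Ndufb9 -0.64 and Uqcr11 -0.53) and with the length correction (Ndufb9 -0.38 and Uqcr11 -0.12).

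The iHoxc9 neurons showed 37 lower genes and none higher, against 7.13% of all genes called lower and 6.95% higher. The iHoxc10 neurons showed 40 lower and none higher, against 7.75% lower and 6.67% higher. The comparisons share the control libraries. Motor neuron markers (6 genes) summed to 543 to 569 CPM in control, 296 to 322 CPM in iHoxc9 and 483 to 545 CPM in iHoxc10, and the 3 erythroid markers to 3.66 to 7.28 CPM in control and at most 1.56 CPM in any induced library. The part of these cells in the result was not tested. Complex I subunits made up most of the calls, with 24 of 38 in iHoxc9 and 23 of 38 in iHoxc10. They are also 38 of the 80 genes and include the near-identical Ndufb4 rows. Complex III had 4 and 5 of 9, complex IV 6 and 5 of 18, and complex II 1 and 2 of 4. The assembly factors had 1 and 4 of 8, and the Ndufa4 family 1 of 2 in each. Only 12 of the 18 complex IV genes had a mean of at least 1 CPM, so the shares of the complexes are not directly comparable. The medians over the 80 genes were -0.61 and -0.68 on the log2 scale, against 0.00 over all genes. No gene exceeded an absolute log2 fold change of 2 with an adjusted p under 0.01 in any of the 6 comparisons. The share of all genes past both limits was 0.115% for iHoxc6, 0.22% for iHoxc8, 2.7% for iHoxc9, 1.48% for iHoxc10, 1.31% between iHoxc9 and iHoxc10, and 12.6% in control against day 2. Without control replicate 3, the counts dropped to 10 in iHoxc9 and 5 in iHoxc10. In iHoxc9, 18 genes were lower without iHoxc9 replicate 1. In iHoxc10, 14 and 19 were lower without iHoxc10 replicates 1 and 2.

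Cox7b, a small complex IV subunit, fell most. It was at 43.2, 45.3 and 40.8 CPM in iHoxc9 and at 36.1, 48.1 and 40.1 CPM in iHoxc10, against 147, 77.9 and 203 CPM in control. No library of either line reached the lowest control library. The log2 fold changes were -1.73 (SE 0.30, adjusted p = 0.000251) and -1.78 (SE 0.30, adjusted p = 0.000199 by edgeR). Cox6c followed, at 53.4, 55.1 and 49.1 CPM in iHoxc9 and 44.3, 52.6 and 42.7 CPM in iHoxc10, against 149, 73.1 and 257 CPM in control. Its log2 fold changes were -1.60 (SE 0.34, adjusted p = 0.0013) and -1.78 (SE 0.34, adjusted p = 0.00055 by edgeR). Cox7b kept its call in both lines with the length correction (-1.18 and -1.17) and without control replicate 3 (-1.41 and -1.43). Cox6c lost its call in both lines with the length correction (-0.62 and -0.72), and in iHoxc9 without control replicate 3 (-1.10, adjusted p = 0.0198 by edgeR). Its exons overlap those of Vps13b on the opposite strand.

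Among the complex I subunits with the largest change in iHoxc9 was Ndufb4, an accessory subunit of the membrane arm, at 39.6, 42.4 and 43.7 CPM against 118, 61.9 and 184 CPM in control (log2 fold change -1.53, SE 0.27, adjusted p = 0.000215 by edgeR). Ndufb4b and Ndufb4c had log2 fold changes of -1.56 each. Their counts were 85.3% to 89.6% of those of Ndufb4 in every library, so reads of these near-identical copies cannot be assigned with certainty and the 3 rows do not count as separate observations. In iHoxc10, Ndufa6, an accessory subunit of the matrix arm, was at 27.8, 31.6 and 29.7 CPM against 77.2, 41.9 and 127 CPM in control (log2 fold change -1.47, SE 0.27, adjusted p = 0.000431 by edgeR). Ndufaf8, an assembly factor, was at 3.29, 4.08 and 3.85 CPM against 7.65, 6.39 and 15.8 CPM (log2 fold change -1.41, SE 0.28, adjusted p = 0.000762 by edgeR). Ndufa4, now placed with complex IV, was at 81.4, 89.7 and 94.4 CPM against 236, 129 and 423 CPM (log2 fold change -1.57, SE 0.31, adjusted p = 0.000747 by edgeR). In each of these, no iHoxc10 library reached the lowest control library, which was replicate 2. Ndufa6, Ndufaf8 and Ndufa4 lost their call with the length correction (-0.53, -0.65 and -0.64), and Ndufaf8 and Ndufa4 also without control replicate 3 (-0.90 and -1.03).

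Few of the core and carrier subunits were called. Ndufs1, Ndufv1 (the NADH-binding subunit) and Ndufs3, all of the core of complex I, were called in none of the 6 comparisons. Neither were Sdha, the flavoprotein of complex II, Uqcrc1, a core protein of complex III, the Rieske iron-sulfur subunit Uqcrfs1, Cyc1, the heme-bearing cytochrome c1, or Cycs. Of the 9 such genes fixed for description, Sdhb, the iron-sulfur subunit of complex II, was the exception. It was at 127, 146 and 155 CPM in iHoxc9 and at 135, 144 and 178 CPM in iHoxc10, against 240, 192 and 324 CPM in control, with log2 fold changes of -0.82 (adjusted p = 0.00234) and -0.72 (adjusted p = 0.0059 by edgeR). Cycs was at 181, 129 and 281 CPM in control and at 99.8 to 114 CPM in iHoxc9 and iHoxc10, and its adjusted p was 0.0161 and 0.0101 by edgeR. Sdha had means of 178 ± 5.69 CPM in iHoxc9 and 143 ± 34.6 CPM in control (SD, n = 3), with 137, 180 and 112 CPM in the 3 control libraries, the lowest in replicate 3. These longer genes have 1046 bases of exon or more.

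The change followed gene length in genes outside the respiratory chain too. In iHoxc10 against control, the median log2 fold change of the other expressed genes went from -1.10 under 500 bases and -0.69 at 500 to 749 bases to 0.29 at 4000 bases or more. The matching values in iHoxc9 were -0.78, -0.68 and 0.33, and in iHoxc8 -0.69, -0.57 and 0.26. In iHoxc6, which shared the run of control, they were -0.23, -0.24 and 0.04. Between iHoxc9 and iHoxc10 they were 0.11, 0.07 and 0.05. The respiratory chain genes are short, with a median of 821 bases. At 500 to 749 bases, where 24 of them lie, their median was -0.75 in iHoxc9 and -0.81 in iHoxc10, and 15 of the 24 were called lower in each. Of the 213 other genes of that length, 46.0% and 50.7% were called lower.

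**Figure D3:**
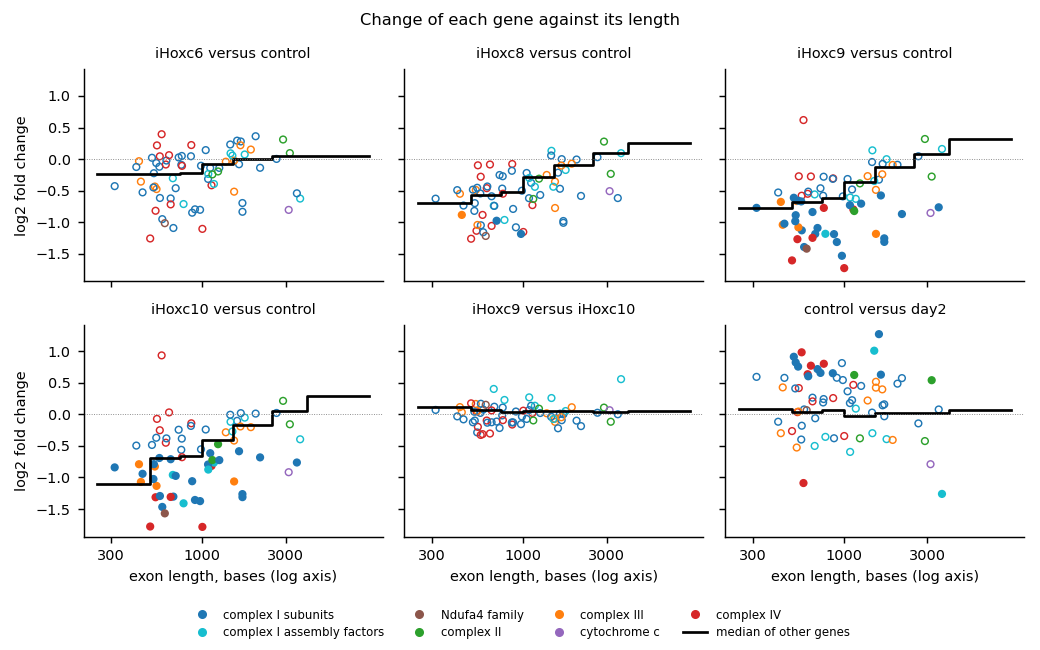
Log2 fold change of each respiratory chain gene of at least 1 CPM against its exon length in bases on a log axis, in the 6 comparisons. Filled points are called at an adjusted p under 0.01, colors give the complex, and the black steps are the medians of the other genes in bins of length. In iHoxc8, iHoxc9 and iHoxc10 against control the steps climb from below -0.6 to above 0.2 and most genes lie near them, and between iHoxc9 and iHoxc10 the steps are flat.

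With the trend on length removed from each library, 9 genes were lower and 1 higher in iHoxc9, against 6.03% and 5.15% of all genes. In iHoxc10 7 were lower and 9 higher, against 5.55% and 5.54%. The medians became -0.03 and 0.01 on the log2 scale. In iHoxc8 none was called. The lower genes in both lines were Cox7b, Ndufb4, Ndufb4b, Ndufb4c, Ndufab1, the mitochondrial acyl carrier protein, and Ndufs4 and Ndufv2, subunits of the NADH-oxidizing arm, and in iHoxc9 also Uqcrq and Ndufb8. The gene called higher in both lines was Cox6b2, with log2 fold changes of 1.39 in iHoxc9 and 1.80 in iHoxc10 after the correction, and 0.62 and 0.93 before it, when neither was called. The other genes higher in iHoxc10 were Cox5a, Cox5b, Cox6a1, Cox6b1 and Cox8a of complex IV and Ndufa1, Ndufa11 and Ndufb7 of complex I, with log2 fold changes of 0.37 to 0.77. Before the correction, all of these but Cox5a had a lower mean in iHoxc10 than in control. For Cox6b1 the means were 203.5 against 278 CPM, and for Ndufa1 34.9 against 49.2 CPM. Ndufs4 was at 46.1, 44.8 and 44.7 CPM in iHoxc9 and at 117, 68.8 and 151 CPM in control. The lengths used were 3479 bases for Ndufab1, 2142 for Ndufb8, 1698 for Ndufs4, 1697 for Ndufv2 and 1521 for Uqcrq. The median of the respiratory chain genes was 821 bases, so the correction acted on these as on longer genes. Ndufb4b and Ndufb4c had no length and took the correction at the median length of all expressed genes. The near-identical Ndufb4 rows all count in the 9 and the 7 lower genes, although they are not separate observations.

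**Figure D4:**
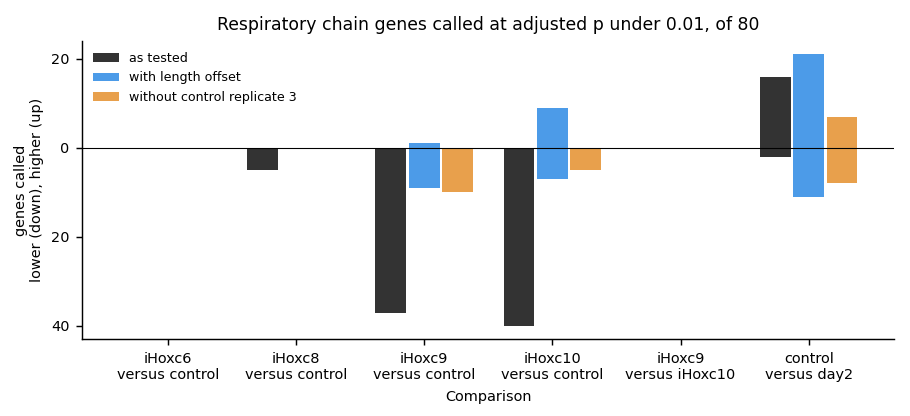
Number of the 80 respiratory chain genes called higher (up) and lower (down) in each comparison, as tested, with the length offset and without control replicate 3. The bars of iHoxc9 and iHoxc10 against control reach 37 and 40 lower genes as tested and 10 and 5 without control replicate 3. Control replicate 3 is not part of the comparison of iHoxc9 with iHoxc10.

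Each library was then placed by the median difference of the expressed respiratory chain genes from their mean over 18 libraries, on the log2(CPM + 1) scale. Control replicate 3 stood highest at 0.71, and control replicates 1 and 2 were at 0.28 and 0.07. The iHoxc6 libraries were at 0.15, 0.28 and 0.08, within the range of control. The iHoxc9 libraries were at -0.36, -0.25 and -0.17 and the iHoxc10 libraries at -0.40, -0.28 and -0.07. In iHoxc8, replicate 2 was at 0.16 and replicates 1 and 3 were at -0.25 and -0.30, although all 3 came from the same run. Other genes under 1000 bases gave a similar order, with 0.65 in control replicate 3 and -0.44 to 0.05 in the iHoxc8, iHoxc9 and iHoxc10 libraries. The summed level of all 80 genes was 10170 ± 2535 CPM for control, 8624 ± 485 CPM for iHoxc6 and 6996 ± 1345 CPM for iHoxc8 (SD, n = 3). It was 6289 ± 430 CPM for iHoxc9, 6499 ± 771 CPM for iHoxc10 and 8360 ± 1527 CPM for day 2. In these bulk samples, fewer cells of a type and less RNA per cell cannot be told apart.

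**Figure D5:**
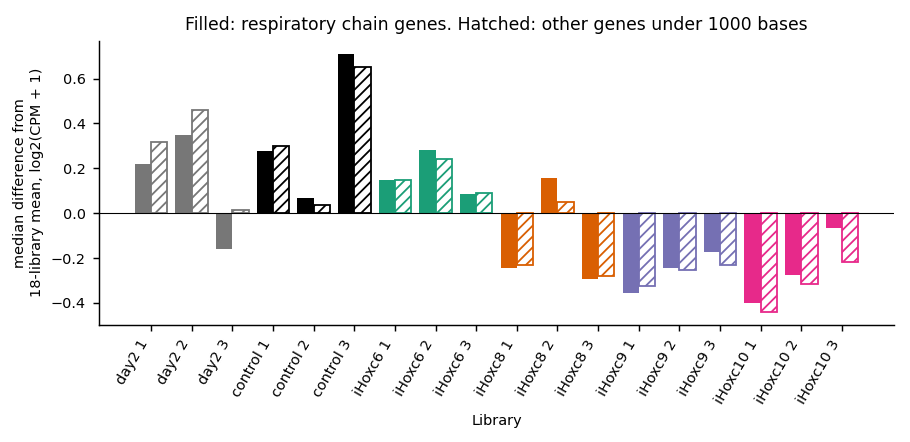
Median difference from the mean of 18 libraries, on the log2(CPM + 1) scale, for each library. Filled bars are the 73 expressed respiratory chain genes and hatched bars are other genes under 1000 bases. The 2 bars lie close together in nearly every library, control replicate 3 is highest at 0.71 and 0.65, and iHoxc8 replicate 2 lies above zero while the other iHoxc8 libraries lie below.

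The control libraries differed among themselves more than those of any induced group. The highest control library was more than 2 times the lowest for 25 of the 73 expressed genes, against 9.84% of all 13192 genes of that level. In the 4 induced groups, 0 of the 73 exceeded this ratio, against 1.17% to 3.52% of all genes. In 24 of the 25 genes replicate 3 was highest and replicate 2 lowest, Cox6b2 being the exception. On day 2, the ratio was above 2 for 16 genes, against 14.7% of all genes, and replicate 3 was the lowest day 2 library for all 25 genes above. The ratios were 3.51 for Cox6c and 3.29 for Ndufa4 in control, and 3.23 and 2.7 on day 2. Across the 73 genes, the log2 difference of control replicate 3 from replicate 2 had a Pearson's r of 0.82 with that of day 2 replicate 2 from replicate 3, against 0.47 across all 13192 genes. Genes are not independent replicates, and these libraries came from different runs. Cycling genes summed to 338 to 743 CPM in control, 471 to 572.5 CPM in iHoxc6 and 504 to 670 CPM in iHoxc8. They summed to 529 to 572.5 CPM in iHoxc9 and 312 to 388 CPM in iHoxc10. Progenitor markers summed to 292 to 627 CPM in control, 386 to 512 CPM in iHoxc6 and 422 to 538 CPM in iHoxc8. In iHoxc9 and iHoxc10 they summed to 505 to 561 CPM and 362 to 397 CPM. The part of cell composition in the spread was not tested. Of the 37 genes called lower in iHoxc9, 23 were among the 25 genes above a ratio of 2 in control, and of the 40 called in iHoxc10, 23 were. Neither this overlap nor the order of the replicates was counted over all genes, so they cannot be read as particular to the respiratory chain.

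Between iHoxc9 and iHoxc10, which share a run, no respiratory chain gene was called in the fit of all 18 libraries, against 4.99% of all genes called, 2.6% higher and 2.4% lower. In that fit, DESeq2 called none either, and 2 of the 80 genes had an unadjusted p under 0.05, against 18.9% of all genes. The same replicate numbers deviated together in these groups, and the call depended on the fit. With only these 6 libraries, 1 gene was called (against 11.1% of all genes), and with the replicate numbers as pairs 12 were lower in iHoxc9 and 2 higher (against 28.9% of all genes). The paired fit leaves 2 residual degrees of freedom per gene, and edgeR then took the spread as shared by all genes, so its p-values rest on that assumption.

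Ndufaf4 was the gene called by both fits of the 6 libraries. It was at 20.9, 18.7 and 16.7 CPM in iHoxc9 and at 13.6, 13.3 and 11.3 CPM in iHoxc10, without overlap (log2 fold change 0.56, adjusted p = 0.0777 by edgeR with all libraries, and 0.52, adjusted p = 0.00483 by edgeR with the 6 libraries unpaired). Cox5a, a subunit of complex IV, was at 169, 164 and 187 CPM in iHoxc9 and at 204, 206 and 232 CPM in iHoxc10, also without overlap. Its log2 fold change was -0.30 with all libraries and -0.34 in the paired fit, which called it. Cox6a1 was at 138, 154 and 166 CPM in iHoxc9 and at 160, 191 and 222 CPM in iHoxc10, lower in iHoxc9 in each pair, with a log2 fold change of -0.35 in the paired fit. The median over the 80 genes was 0.01 on the log2 scale with all libraries. Genes with at least 1 CPM lay within 0.56 of zero in either direction.

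The lines were also tested directly against iHoxc6, across runs and without the control libraries in the fold change. In the fit of all libraries, 1 of the 80 genes was called in iHoxc8 (against 3.55% of all genes), 6 in iHoxc9 (against 11.7%) and 1 in iHoxc10 (against 11%). With only the 6 libraries of each comparison, where control and day 2 libraries no longer enter the spread, 55 of 79 genes were lower and 1 higher in iHoxc9, against 32.9% of all genes called. In iHoxc10 47 of 78 were lower and none higher, against 25.1%, and in iHoxc8 1 of 78 was lower and 1 higher, against 6.01%. The same replicate numbers deviated together for iHoxc8 with iHoxc6, and only weakly for iHoxc9 with iHoxc6 (correlations 0.11 to 0.177). The labels give replicate numbers and state no pairs. As pairs they gave 44 lower and 3 higher in iHoxc8 (against 24.9% of all genes) and 58 lower and 1 higher in iHoxc9 (against 36.1%). These fits again left 2 residual degrees of freedom, and for iHoxc9 the spread was again taken as shared by all genes. The shares of all genes pool both directions, and no length correction was run here. Other genes under 1000 bases had mean library medians of 0.16 in iHoxc6, -0.27 in iHoxc9 and -0.32 in iHoxc10. The respiratory chain genes had 0.17, -0.26 and -0.25, on the log2(CPM + 1) scale above.

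Other short-gene families were also lower in iHoxc8, iHoxc9 and iHoxc10 than in control. Of all genes, 1.09%, 7.13% and 7.75% were called lower in these 3 comparisons. Of 77 cytosolic ribosomal genes, 18 were lower in iHoxc8, 60 in iHoxc9 and 70 in iHoxc10, with medians of -0.79, -0.90 and -1.10. Of 78 mitochondrial ribosomal genes, 10, 36 and 47 were lower, and of 17 nuclear ATP synthase genes, 1, 9 and 9. None of the 13 genes of the TCA cycle was called in any of these 3 comparisons. The 13 genes encoded by mitochondrial DNA had 1, 2 and 1 called higher and none lower. With the length correction, 22 cytosolic and 19 mitochondrial ribosomal genes were lower in iHoxc9, against 6.03% of all genes. In iHoxc10 33 and 27 were lower, against 5.55%, and in iHoxc8 1 and 2, against 0.678%. The ribosomal families thus kept larger shares of lower genes in iHoxc9 and iHoxc10 than the respiratory chain genes did (11.3% and 8.75%). In iHoxc6 against control and in iHoxc9 against iHoxc10, no gene of these lists was called with all libraries in the fit. The part of gene length, of control replicate 3 and of the run in the lower levels of the respiratory chain genes was measured only as given here, and no cause was tested.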

How the data were processed

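RNA was measured by polyA-selected, single-end RNA-seq. Per the paper's methods, the authors aligned reads with STAR 2.7.0c and assigned them to mm10 RefSeq genes with featureCounts, and they deposited the raw counts, a column for each replicate. The strand setting was not given in the sources used here. Counts were normalized by TMM and tested in edgeR 4.0.16 (R 4.3.3) with a quasi-likelihood fit that held every library. The 20944 genes tested had at least a single count among the iHox libraries. The fit was followed by Benjamini-Hochberg adjustment and a threshold of 0.01. The q threshold is that of the study, and its threshold of 2 on the log2 fold change was an alternative. Groups and runs came from the labels. The length correction is an offset from a lowess curve (span 0.3) of each library's log2 CPM difference on exon length. The code was tested on simulated data. The genes and lists were chosen with earlier results of these data known. Genes given with values were, per comparison, up to 5 called genes with the largest change, at least 1 CPM and no overlap between groups, plus tissue forms and core subunits. Others, such as Sdhc, Sdhd, Ndufs4, Cox7c and Uqcrh, were named after their values were seen. Alternatives were DESeq2 1.42.0, its size factors, other filters and thresholds, fits of the compared groups, a replicate block, length and GC offsets, and each library left out. The same replicate numbers deviated together in iHoxc9 and iHoxc10 (correlations 0.423 to 0.537) and in iHoxc8 and iHoxc6 (0.233 to 0.556). In iHoxc9 and iHoxc6 they did so only weakly (0.11 to 0.177). In these 3 comparisons they were also taken as pairs, in fits added after seeing the data. In iHoxc10 and iHoxc6 (-0.001 to 0.234) they were not. Precision was limited by 3 libraries per group and by counts of 24498630 to 33168533 per library. The rows Uqcrh-ps1, Ndufa11b, Ndufs5-ps and Ndufs6b are pseudogenes and were left out. The interneuron markers are not reported here.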

Additional observations from a re-analysis of the deposited data

Results flagged for a closer look

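The effects of the Hox genes against control were compared with that of Hoxc6 by testing each line directly against iHoxc6, in the same edgeR fit. In iHoxc8 1 respiratory chain gene differed, Cox6b2, with a log2 fold change of -1.28 (adjusted p = 0.00567), against 3.55% of all genes. It was at 1.18, 1.40 and 1.16 CPM in iHoxc8 and at 3.45, 3.02 and 2.61 CPM in iHoxc6.

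In iHoxc9 6 genes differed from iHoxc6, against 11.7% of all genes. Ndufv3, Ndufb8 and Ndufa3 of complex I, Uqcr10 of complex III and Cox6a1 of complex IV were lower, by -0.62 to -0.73 on the log2 scale, and Ndufaf4 was higher by 0.78 (adjusted p = 0.0051 by edgeR). Ndufaf4 was at 20.9, 18.7 and 16.7 CPM in iHoxc9 and at 9.73, 10.7 and 12.3 CPM in iHoxc6. In iHoxc10 1 gene differed, Uqcr10, with a log2 fold change of -0.76 (adjusted p = 0.00274 by edgeR), against 11% of all genes. It was at 39.3, 45.1 and 49.1 CPM in iHoxc10 and at 72.5, 79.6 and 73.4 CPM in iHoxc6. With only the compared libraries in the fit, these counts were 2 of 78 in iHoxc8, 56 of 79 in iHoxc9 and 47 of 78 in iHoxc10. The shares of all genes called were then 6.01%, 32.9% and 25.1%, and gene length was not corrected for. These comparisons lie across runs, so an effect of the run cannot be told apart from that of a Hox gene.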

How the results depend on the processing

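Recomputed were the 17 fold changes of the called genes with the largest change per comparison. None of these 17 reversed direction. They were chosen as called and without overlap between groups, so a reversal on leaving a library out was unlikely from the start. The 17 include the near-identical Ndufb4 rows, and Cox7b and Cox6c in both iHoxc9 and iHoxc10, so they are not separate observations. Genes outside the 17 did reverse, such as Cox6b1 in iHoxc10 against control under the length offset. Of the 238 recomputed values, 205 kept their side of the threshold and 33 lost their call. Of these losses, 7 came with the length offset, 6 with the length and GC offset and 10 with a library left out.

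With an absolute log2 fold change above 2 required as well, 0 genes were called in each comparison. At an adjusted p under 0.05, 3 were called in iHoxc6, 29 in iHoxc8 and 39 in control against day 2. DESeq2's Wald test called 2 in iHoxc6 and 22 in iHoxc8. In iHoxc8, the calls went from 5 to 0 under the stricter filter of 10 counts in 3 libraries, to 11 with no filter beyond a count above 0, to 0 with only the groups compared, to 0 with the replicate block, to 0 with the length offset, and to 3 with the GC offset, of which 0 were among the 5. With the length offset, 10 were called in iHoxc9, 16 in iHoxc10 and 32 in control against day 2. The length and GC offset together, chosen after seeing the data, gave 2 in iHoxc8, 14 in iHoxc9 and 18 in iHoxc10. With only the groups compared, 1 was called between iHoxc9 and iHoxc10 and 9 in control against day 2. With the replicate block in that fit, also chosen after seeing the data, 14 were called between iHoxc9 and iHoxc10.

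Leaving out each library in turn gave 0 to 15 calls in iHoxc6, 0 to 33 in iHoxc8, 10 to 47 in iHoxc9, 5 to 45 in iHoxc10, 0 between iHoxc9 and iHoxc10, and 14 to 31 in control against day 2. The cause of these changes was not tested, other than that the length offset removes the trend on length by construction. The replicate block gave 0, 0, 36, 39, 0 and 17 calls in the order of the comparisons above, so beside iHoxc8 it moved no count by more than 1.5 times when all groups were fitted. In the comparisons with control or day 2, the same replicate numbers did not all deviate together (correlations -0.442 to 0.276). The labels state no pairs, and these correlations cannot show whether any samples there were paired. Under DESeq2's size factors, 202 of 216 levels and 46 of 48 summed levels moved by less than their SD. Levels per kb change the unit and so the order of genes.

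At 3 libraries per group, small differences were not detectable. Counts of multigene families and of genes overlapping another gene are uncertain, since the strand setting was not given.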
